A study of Triticum aestivum with 6 samples.

Results

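The rows examined here were those of a wheat gene table whose description matched lipoxygenase, allene oxide, 12-oxophytodienoate, jasmon or TIFY, in upper or lower case. The rule found 129 of 107891 genes. Of these, 8 were potassium channels, matched only because the word rectifying holds the letters tify, and they were set aside, which left 121 lipoxygenase and jasmonate genes. The 121 were 44 lipoxygenases, 3 allene oxide synthases, 3 allene oxide cyclases, 24 12-oxophytodienoate reductases, 29 jasmonate O-methyltransferases, 9 TIFY regulators and 9 jasmonate-induced proteins. The libraries came from bread wheat (Triticum aestivum), a hexaploid with the subgenomes A, B and D, and compared a white-grained with a purple-grained wheat. Each grain type had 3 RNA sequencing libraries from grain 30 days after flowering, of plants kept in pots in a climate chamber, with no treatment named in the labels. The tissue is labelled as grain, but stems and buds are what the extraction protocol mentions. Grain colour and all other genetic differences between the wheats cannot be told apart.

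Jasmonates are plant hormones made from membrane fatty acids, best known from the response to wounding and attack and from flower and seed development. A plastid lipoxygenase adds oxygen to linolenic acid, allene oxide synthase and allene oxide cyclase turn the product into 12-oxophytodienoate, and a reductase in the peroxisome followed by rounds of beta-oxidation yields jasmonic acid, which acts as its isoleucine conjugate. The conjugate binds the receptor COI1 together with repressors of the TIFY family, which are then degraded and release transcription factors such as MYC2. Lipoxygenases fall into 9-lipoxygenases and 13-lipoxygenases by the carbon they oxidise. The 13-lipoxygenases feed jasmonate synthesis, and 9-lipoxygenases, which are abundant in cereal embryos, make other oxidised lipids.

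As a check of the labelled grain tissue, gliadin and glutenin genes, which mark starchy endosperm, made up between 8.23% and 21.3% of all FPKM in a library. Library totals ran from 78660932 to 102868886 counts. Purple replicate 3 stood apart: the correlation of its log2 levels across genes, which are not independent of each other, was 0.849 with purple replicate 1 and 0.868 with purple replicate 2, where that between purple replicates 1 and 2 was 0.9225. By this correlation white replicate 1 was likewise apart from its group, at 0.867 with white replicate 2 and 0.844 with white replicate 3, where those 2 correlated at 0.931. The chi-square of the counts per degree of freedom did not set it apart. That was 272.6 and 235.1 against white replicates 2 and 3, and 250.5 between those 2. Results that rest on purple replicate 3 or white replicate 1 are given with and without that library. Of the 121 genes, 51 had 0 counts in every library, 34 had counts but fell below the filter of a mean of 0.5 FPKM (the authors' level scaled for transcript length and library size), and 36 were tested. That mean is over all 6 libraries, so a gene could pass through 1 grain type alone. A gene was called where edgeR gave a Benjamini-Hochberg adjusted p below 0.05 and a log2 difference of 1 or more in size.

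Purple grain had a higher level of 1 lipoxygenase gene and 1 12-oxophytodienoate reductase gene, both without a single count in white grain, and a lower level of 2 other 12-oxophytodienoate reductase genes. These were the 4 called genes, 2 higher and 2 lower of the 36 tested, beside 2.87% higher and 2.32% lower among the 48492 genes tested in all. With an unadjusted edgeR p below 0.05, 9 of the 36 were higher and 9 lower, beside 14.2% and 12.6% of all tested genes. DESeq2 called 7 higher and 9 lower (9.41% and 6.2% of all), limma on log2(FPKM + 1) called 3 and 4 (3.17% and 3.47%), and edgeR without purple replicate 3 called 7 and 3 (5.28% and 4.97%). Without white replicate 1 edgeR called 2 higher and 4 lower, the latter all reductases. In that fit 1589 of all 48492 tested genes were called higher and 1106 lower. The 2 enzyme classes lay on opposite sides of 0. Of 11 tested lipoxygenases 10 had a log2 difference above 0, with a median of 0.98, and of 13 tested 12-oxophytodienoate reductases 12 had one below 0, with a median of -2.42, where all tested genes had a median of 0.02 and 24717 of the 48492 lay above 0. With libraries scaled to total counts the medians were 0.85 and -2.56, and that of all genes -0.11. In these bulk samples fewer cells of a type and less RNA per cell cannot be told apart.

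**Figure D1:**
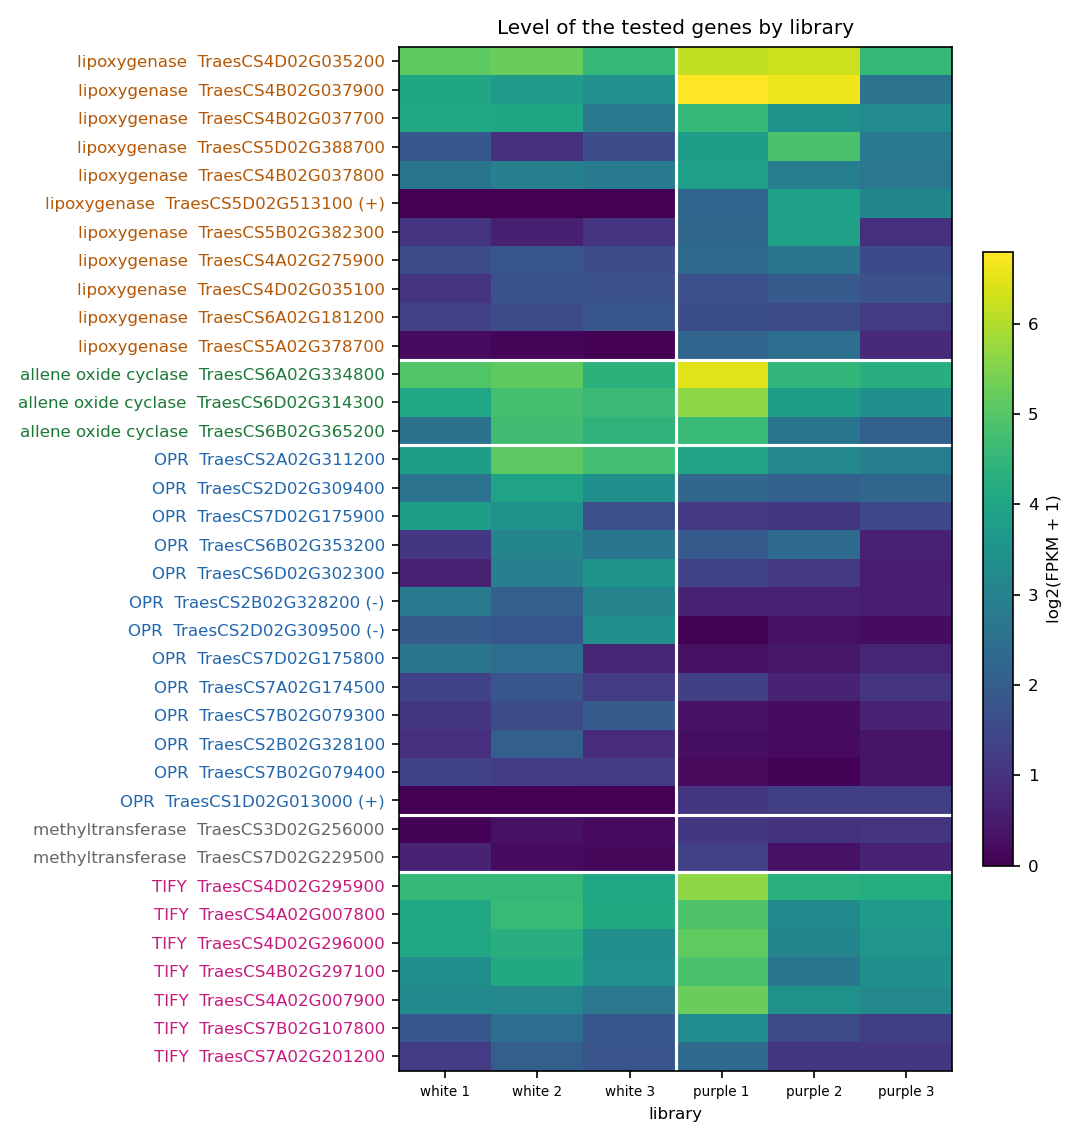
Level of each of the 36 tested genes (rows, grouped by class and ordered by mean level) in each of the 6 libraries (columns), coloured by log2(FPKM + 1). OPR stands for 12-oxophytodienoate reductase, and + and - mark the 2 genes called higher and the 2 called lower in purple grain. Of the 11 lipoxygenase rows 7 are brighter in purple replicates 1 and 2 than in any white library, most reductase rows are darker in all purple libraries, and the TIFY rows are brightest in purple replicate 1.

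**Figure D2:**
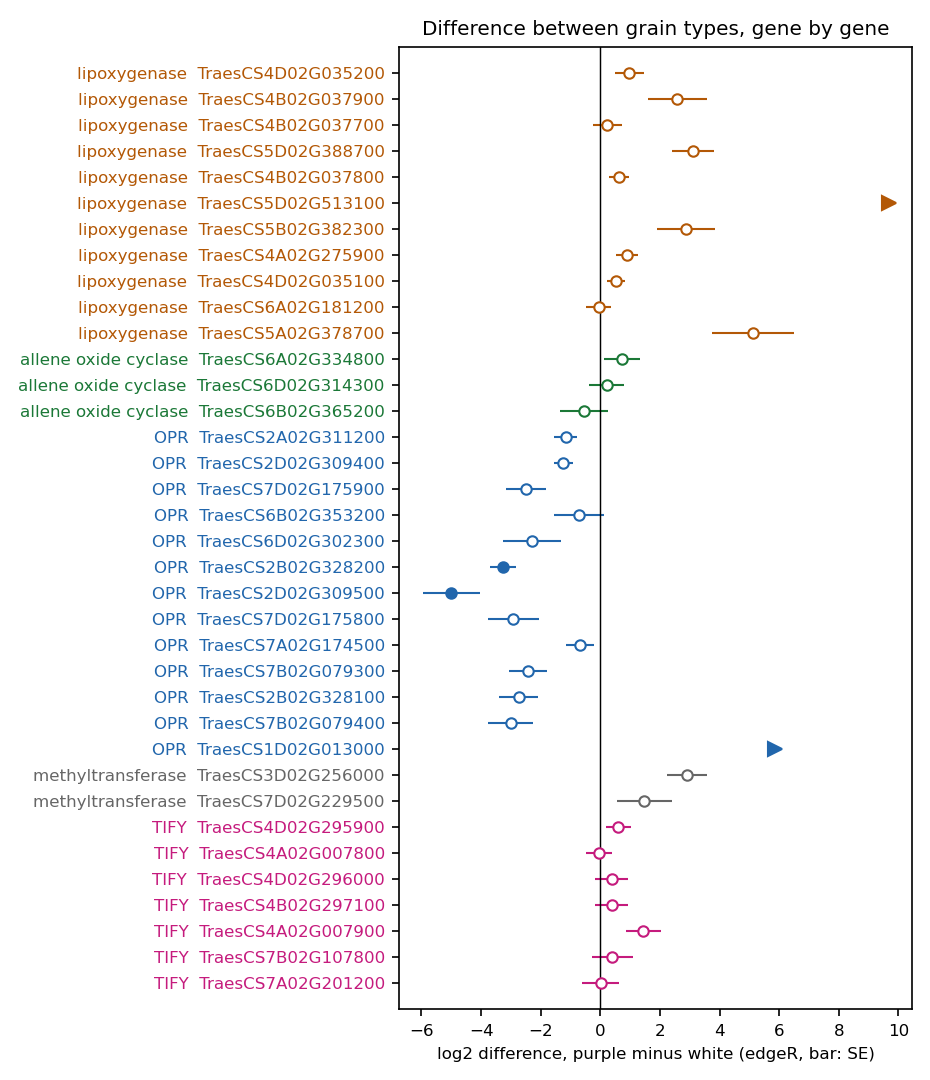
Log2 difference, purple minus white, of the 36 tested genes from edgeR, with bars for the SE, which was derived from the test statistic. Filled circles passed the test and open circles did not, and triangles are lower bounds for the 2 called genes with 0 counts in white grain. Of the lipoxygenases 10 of 11 lie right of 0, and of the reductases (OPR) 12 of 13 lie left of it.

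Of the 44 lipoxygenase genes 17 had 0 counts in every library and 11 were tested. All 11 carry the KEGG orthologue number K15718, which stands for 9-lipoxygenases. The 10 members with K00454, the number for 13-lipoxygenases, were all below the filter, 7 of them at 0 counts in every library, and the highest single value among them was 0.0434 FPKM. By this annotation every tested lipoxygenase of the rule is thus a 9-lipoxygenase. Further genes with the 13-lipoxygenase number lie outside the description rule.

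The only called lipoxygenase, TraesCS5D02G513100 (chromosome 5D, 537221655 to 537225469), is described as a putative lipoxygenase 3. It had 0 counts in each white library and 3.65, 13.8 and 7.70 FPKM in purple replicates 1 to 3, from 1218, 4368 and 2024 counts. Its level in purple grain, 8.39 ± 5.12 FPKM (SD, n = 3), was at least 818-fold that in white grain, taking 3 counts per library as the floor (edgeR adjusted p = 0.0114). The groups did not overlap, and the gene was called under each of the 14 alternatives tried, including without any single library. Of the 20 genes that flank it, 17 had a count in white grain, and 0 of its tested neighbours were called.

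TraesCS5D02G388700 (chromosome 5D, 458094426 to 458098176), on the same chromosome and with the same description, had 2.68, 0.950 and 2.03 FPKM in white replicates 1 to 3, against 12.7, 27.8 and 6.14 FPKM in purple replicates 1 to 3. Every purple library lay above every white one, with a log2 difference of 3.10 and an SE of 0.70 (edgeR adjusted p = 0.0559), which missed the threshold. It was named after its values were seen, as were the other lipoxygenases of chromosome group 5 below. It was called under 6 of its alternatives, among them DESeq2 and edgeR without purple replicate 3 (edgeR adjusted p = 0.0293; 3.95e-05 to 0.163 over the alternatives). TraesCS5A02G378700 had white values of 0.176, 0.0909 and 0 and purple values of 3.67, 4.55 and 0.754 FPKM, again without overlap (5.13 ± 1.36; edgeR adjusted p = 0.0789). DESeq2, limma on log2(FPKM + 0.1) and edgeR with the replicate block called it higher (adjusted p from 2.16e-04 to 0.223 over the alternatives). TraesCS5B02G382300 had white values of 1.08, 0.513 and 1.04 and purple values of 3.83, 13.8 and 0.886 FPKM, with purple replicate 3 inside the white range (edgeR adjusted p = 0.125). It was called higher by DESeq2 (adjusted p = 0.00729) and by edgeR without purple replicate 3 (adjusted p = 0.0377; 0.00729 to 0.351 over the alternatives). It overlaps the lipoxygenase gene TraesCS5B02G382200 on the opposite strand, and since the strand setting of the counting is not given in the sources used here, reads of the pair cannot be told apart.

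The most expressed lipoxygenase genes lie in clusters on chromosomes 4B and 4D and did not pass the test. TraesCS4D02G035200 (chromosome 4D, 15911931 to 15916180), with the highest mean of all 121 genes, had 33.4, 37.2 and 22.5 FPKM in white replicates 1 to 3, against 71.7, 76.1 and 22.4 FPKM in purple replicates 1 to 3. TraesCS4B02G037900 (chromosome 4B, 27518619 to 27523533) had 15.2, 12.4 and 9.79 FPKM in white replicates 1 to 3, against 110.1, 97.0 and 5.03 FPKM in purple replicates 1 to 3. In both genes purple replicates 1 and 2 stood above all white libraries and purple replicate 3 stood below them. The log2 differences were 0.98 ± 0.48 and 2.59 ± 0.98 (SE, edgeR adjusted p = 0.246 and 0.157). Without purple replicate 3 both were called higher, with log2 differences of 1.37 and 3.15 (edgeR adjusted p = 0.0417 and 0.0111, where the alternatives ran from 0.0417 to 0.522 and from 0.0111 to 0.380). The neighbour TraesCS4B02G037700, described as lipoxygenase 4, had white values of 16.0, 15.4 and 5.73 and purple values of 22.0, 10.1 and 8.74 FPKM. Its groups overlapped throughout (0.24 ± 0.50; edgeR adjusted p = 0.793), and its direction turned without white replicate 3 or without purple replicate 1.

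**Figure D3:**
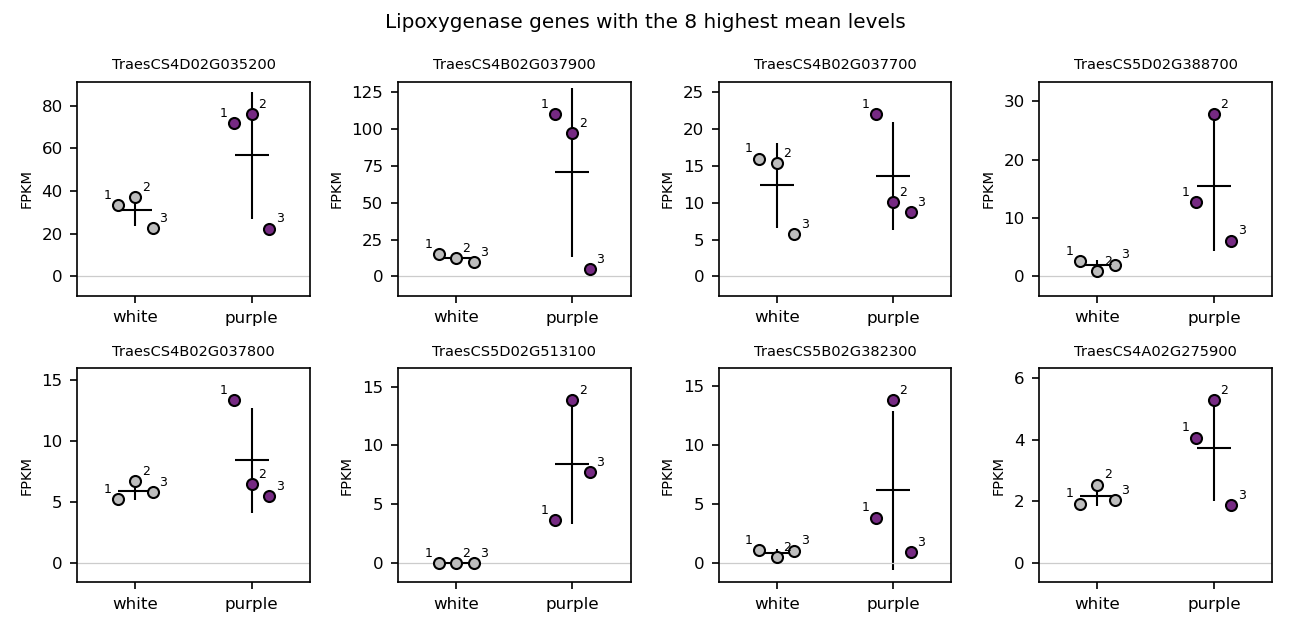
FPKM of the 8 lipoxygenase genes with the highest mean level, in white (grey) and purple (violet) grain. Each numbered point is a replicate, the horizontal bar the mean and the vertical bar the SD (n = 3). Purple replicates 1 and 2 lie above all white points in 6 of the 8 panels, whereas purple replicate 3 does so in 2, TraesCS5D02G388700 and TraesCS5D02G513100.

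Purple replicates 1 and 2 were both above all white libraries in 7 of the 11 tested lipoxygenases, as in 10834 of the 48492 genes, and all 3 purple libraries in 3 of 11, where 13.3% of all tested genes had the latter pattern. Of the 3, TraesCS5D02G513100 and TraesCS5A02G378700 averaged 0 and 0.0889 FPKM in white grain. They passed the filter through purple grain alone, so this count is partly set by the filter. The tested genes not described so far, TraesCS4B02G037800, TraesCS4A02G275900, TraesCS4D02G035100 and TraesCS6A02G181200, had overlapping groups and log2 differences of 0.61, 0.90, 0.52 and -0.06 (edgeR adjusted p = 0.290, 0.184, 0.325 and 0.945). Of these 4, TraesCS4A02G275900 was called higher by edgeR without purple replicate 3 (adjusted p = 0.0315; 0.0315 to 0.456 over the alternatives). DESeq2 called 5 of the 11 higher and edgeR without purple replicate 3 called 6, beside 9.41% and 5.28% of all tested genes. Summed over the 44 genes, lipoxygenase FPKM was 78.6, 80.4 and 54.3 in white and 256, 262 and 62.9 in purple grain, so that purple replicate 3 lay within the white range. Markers of embryo and aleurone, which were the 43 genes described as oleosins, late embryogenesis abundant proteins, Em proteins or globulin-1, were also highest in purple replicates 1 and 2. Their summed FPKM was 1476, 1852 and 663 in white and 10558, 13790.4 and 3287 in purple grain, 5 of the 43 had 0 counts in every library, and of 32 tested edgeR called 4 higher and 0 lower. DESeq2 called 12 of these markers higher and edgeR without purple replicate 3 called 9. Their median log2 difference was 1.08, and 17 were higher and 1 lower at an unadjusted edgeR p below 0.05, beside 14.2% and 12.6% of all tested genes. The part of these markers in the lipoxygenase result was not tested.

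Of the lipoxygenase genes of chromosome group 5 below the filter, the 4 with the most counts are named here after their values were seen. TraesCS5A02G378900 had no count in white grain, against 661, 117 and 0 in purple replicates 1 to 3. Its neighbour TraesCS5A02G379000 had 577 counts in purple replicate 1 and 0 in each other library. TraesCS5D02G388800 had 19, 0 and 0 counts in white and 178, 40 and 4 in purple grain. In these genes most counts came from purple replicate 1. TraesCS5B02G382200 had 0, 11 and 37 counts in white and 167, 610 and 13 in purple grain, most of them in purple replicate 2. None of the 4 was called in the fit without a filter. Of the 27 lipoxygenases with any count, 23 had a log2 difference above 0 in that fit, beside 42340 of all 80138 genes with a count. Some of the 23 had very few counts, such as TraesCS2D02G528500 and TraesCS5A02G007900, with 3 and 7 in 1 purple library. The direction of such genes says little.

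The next steps of the pathway showed no called gene. The 3 genes described as allene oxide synthase, which makes the unstable allene oxide, had at most 20 counts in a library and 0.103 FPKM, and none was tested. The 3 allene oxide cyclase genes, which set the ring of 12-oxophytodienoate, lie on chromosomes 6A, 6B and 6D and were all tested. TraesCS6A02G334800 (chromosome 6A, 565391805 to 565392636) had 29.9, 33.4 and 19.6 FPKM in white replicates 1 to 3, against 89.1, 21.6 and 18.5 FPKM in purple replicates 1 to 3. TraesCS6D02G314300 had white values of 15.8, 26.9 and 23.9 and purple values of 49.0, 12.96 and 9.60 FPKM, and TraesCS6B02G365200 had white values of 4.90, 25.0 and 20.4 and purple values of 22.8, 5.27 and 3.35 FPKM. Purple replicate 1 was the highest library of 2 of the 3 genes, while purple replicates 2 and 3 lay inside or below the white range in each. EdgeR called 0 of the 3, with 0 at an unadjusted edgeR p below 0.05, and DESeq2 and limma also called 0. The log2 differences were 0.73 ± 0.61, 0.21 ± 0.59 and -0.54 ± 0.81 (SE, edgeR adjusted p = 0.478, 0.853 and 0.702). Without purple replicate 1 the difference of the 6A gene was -0.31 and that of the 6D gene -0.81, below 0 in both.

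The 12-oxophytodienoate reductases were the class with called genes in both directions, 1 higher and 2 lower of 13 tested. In Arabidopsis the peroxisomal OPR3 carries out the main reductase step of jasmonate synthesis, while OPR1 and OPR2 are related enzymes of the cytosol. By description 11 of the 24 wheat genes are named for OPR1 and 13 for OPR2, and all 24 carry the same KEGG orthologue number, K05894. All 10 tested genes named for OPR2 had a log2 difference below 0, and 2 of them were called lower.

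TraesCS2B02G328200 (chromosome 2B, 470070583 to 470072507), named for OPR2, had 5.86, 3.19 and 7.22 FPKM in white replicates 1 to 3, against 0.562, 0.554 and 0.496 FPKM in purple replicates 1 to 3. The purple values lay close together and well below every white value. It fell by 3.26 on the log2 scale (SE 0.43; edgeR adjusted p = 0.0132), and the call did not hold in 1 of its 14 alternatives, without purple replicate 2 (edgeR adjusted p = 0.0681; 2.10e-10 to 0.0681 over the alternatives). TraesCS2D02G309500 (chromosome 2D, 396712074 to 396713976), with the same description, had 2.96, 2.52 and 9.27 FPKM in white replicates 1 to 3, against 0.0259, 0.237 and 0.163 FPKM in purple replicates 1 to 3. Its groups did not overlap either, and it fell by 5.00 on the log2 scale (SE 0.96; edgeR adjusted p = 0.0384). This call did not hold with the replicate block and without white replicate 2, white replicate 3 or any single purple library (edgeR adjusted p up to 0.114).

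Each of these genes lies beside another reductase gene with a difference in the same direction, described here after its values were seen. TraesCS2B02G328100 had white values of 0.883, 3.18 and 0.835 and purple values of 0.190, 0.139 and 0.308 FPKM (-2.74 ± 0.65; edgeR adjusted p = 0.0622). TraesCS2D02G309400 had white values of 5.05, 14.2 and 9.56 and purple values of 3.75, 3.28 and 3.88 FPKM (-1.24 ± 0.32; edgeR adjusted p = 0.0762). Neither neighbour passed the test, though the 2D gene was called lower without white replicate 1 (edgeR adjusted p = 0.0293; 0.0108 to 0.230 over the alternatives) and by DESeq2, and in both all purple libraries lay below all white ones. Reductase pairs on chromosome 7B, 89541640 to 89560663, and 7D, 127699170 to 127753820, had the same direction. TraesCS7B02G079400 had white values of 1.57, 1.36 and 1.25 and purple values of 0.120, 0.0425 and 0.308 FPKM (edgeR adjusted p = 0.0722). TraesCS7D02G175900 had white values of 13.1, 9.95 and 2.14 and purple values of 1.20, 1.13 and 1.82 FPKM (edgeR adjusted p = 0.0780). Of the 13 tested reductases 7 had all purple libraries below all white ones, where 19.9% of all tested genes did. Among these 7, TraesCS2D02G309500, TraesCS2B02G328100 and TraesCS7B02G079400 averaged below 0.5 FPKM in purple grain and so passed the filter through white grain alone. With a lower level, 9 of the 13 had an unadjusted edgeR p under 0.05, beside 12.6% of all tested genes. DESeq2 called 9 lower, limma 4 and edgeR without purple replicate 3 called 3, beside 6.2%, 3.47% and 4.97% of all tested genes. Without white replicate 1 edgeR called 4 lower, beside 1106 of all 48492 tested genes. The further ones were TraesCS2D02G309400 and TraesCS6D02G302300 (edgeR adjusted p = 0.0494 for the latter, with 0.0494 to 0.457 over the alternatives).

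**Figure D4:**
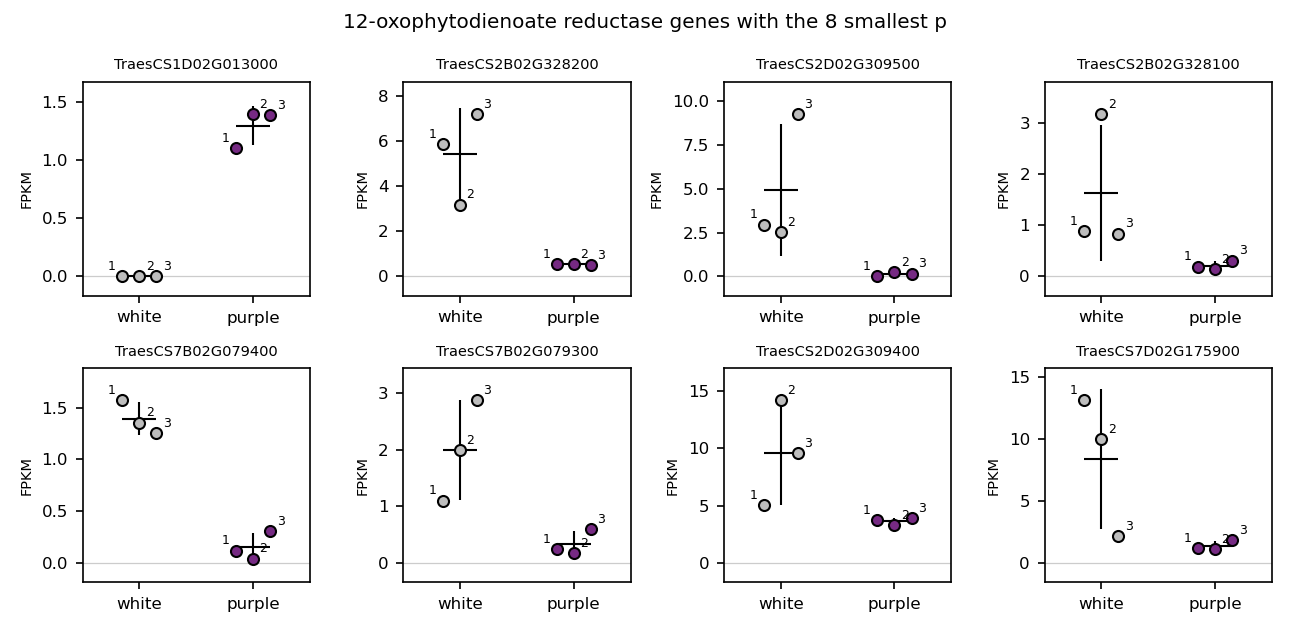
FPKM of the 8 12-oxophytodienoate reductase genes with the smallest edgeR p, in white (grey) and purple (violet) grain. Each numbered point is a replicate, the horizontal bar the mean and the vertical bar the SD (n = 3). In TraesCS1D02G013000 the purple points lie above white points at 0, and in the other 7 panels all purple points lie below all white ones.

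The reductase gene with the highest mean, TraesCS2A02G311200 (chromosome 2A, 534631870 to 534634396), is named for OPR1 and had 12.8, 32.8 and 25.7 FPKM in white replicates 1 to 3, against 14.5, 8.06 and 6.36 FPKM in purple replicates 1 to 3. White replicate 1 lay below purple replicate 1, so the groups overlapped, and it did not pass (-1.17 ± 0.39; edgeR adjusted p = 0.125). DESeq2 called it lower (adjusted p = 0.0459; 0.0459 to 0.324 over the alternatives). TraesCS6D02G302300 and TraesCS6B02G353200 varied widely within white grain, with white values of 0.550, 6.83 and 10.4 and purple values of 1.58, 1.24 and 0.447 FPKM for the former and white values of 1.10, 7.49 and 5.29 and purple values of 2.79, 4.20 and 0.540 FPKM for the latter. White replicate 1 was low in both, and neither passed (edgeR adjusted p = 0.189 and 0.622).

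In the opposite direction, TraesCS1D02G013000 (chromosome 1D, 6731413 to 6732961), named for OPR1, had 0 counts in each white library and 1.10, 1.40 and 1.38 FPKM in purple replicates 1 to 3, from 172, 207 and 171 counts. Its purple values were close together, at 1.29 ± 0.167 FPKM (SD, n = 3). The level was at least 58.8-fold that in white grain with 3 counts per library as the floor (edgeR adjusted p = 0.0100). The call did not hold with the replicate block and without purple replicate 2 (edgeR adjusted p up to 0.0601), and at a mean of at least 1 FPKM the gene was not tested. With 0 counts in white grain it passed the filter through purple grain alone. Of its 20 flanking genes 11 had a count in white grain, 1 had counts in purple grain alone and 1 was called higher. Below the filter, TraesCS4B02G048500 had 0, 4 and 0 counts in white and 84, 145 and 0 in purple grain. Whether genes without counts in white grain are absent or diverged in those plants was not tested on sequence.

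Summed over the 24 genes, reductase FPKM was 53.3, 91.1 and 76.8 in white and 28.5, 22.5 and 18.9 in purple grain, so that all purple libraries, purple replicate 3 included, lay below all white ones. Green tissue markers, the 74 genes for chlorophyll a-b binding proteins and the Rubisco small subunit, summed to 271, 226 and 291 in white and 42.0, 28.3 and 219 in purple grain, with purple replicate 3 near the white libraries. Of these markers 7 had 0 counts in every library, and of 34 tested 33 had a log2 difference below 0. EdgeR called 0 of the 34, with 1 lower at an unadjusted edgeR p below 0.05 and 1 lower by DESeq2, and it called 26 lower without purple replicate 3. Of all tested genes that last fit called 4.97% lower. Starchy endosperm markers, the 108 gliadin and glutenin genes, summed to 137338, 76998 and 155706 in white and 63539.6, 68819 and 177721 in purple grain, with 18 lower of 96 tested and 5 at 0 counts in every library. The part of these tissues in the reductase result was not tested.

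**Figure D5:**
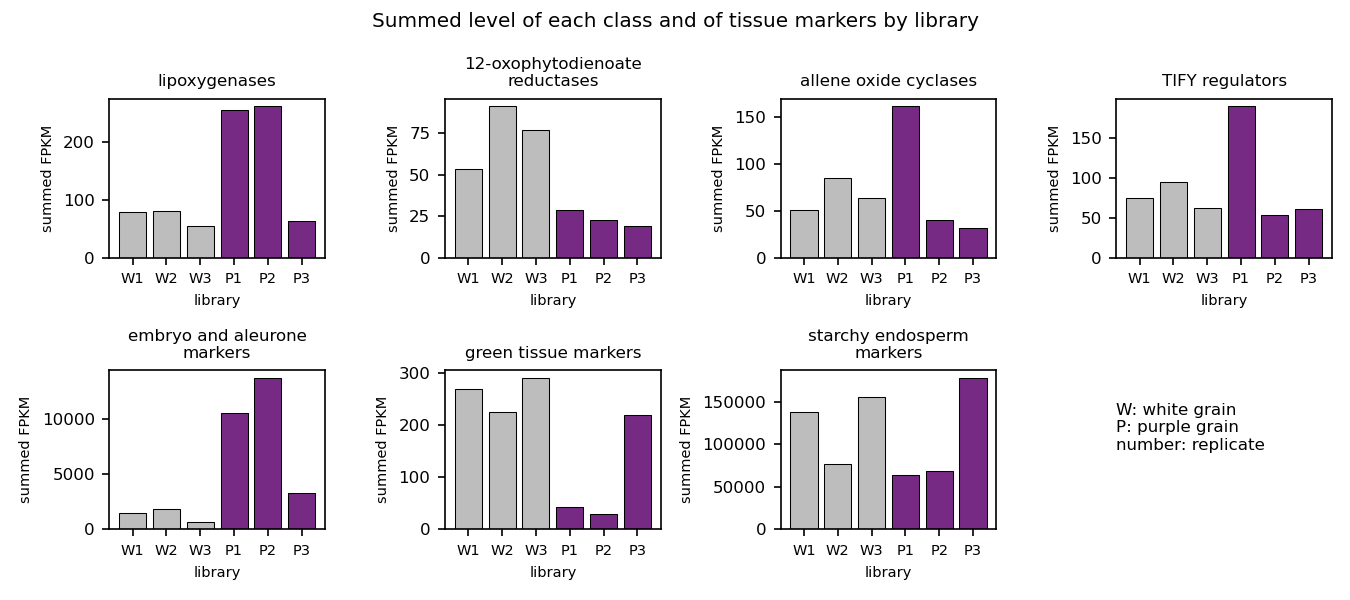
Summed FPKM of 4 classes and of 3 sets of tissue markers in each library (bars from 0; W white, P purple, number the replicate). The lipoxygenase and the embryo and aleurone sums are highest in P1 and P2, the reductase sums are lower in all purple libraries, and the cyclase and TIFY sums are highest in P1.

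Jasmonate O-methyltransferases turn jasmonic acid into volatile methyl jasmonate. Of 29 genes with that description 19 had 0 counts in every library and 2 were tested. TraesCS3D02G256000 (chromosome 3D, 357710633 to 357711772) had 0.0390, 0.258 and 0.155 FPKM in white replicates 1 to 3, against 1.12, 0.981 and 1.02 FPKM in purple replicates 1 to 3. Every purple value lay above every white value, with a log2 difference of 2.91 and an SE of 0.66 (edgeR adjusted p = 0.0570), which missed the threshold. DESeq2 called it higher (adjusted p = 0.000686), as did limma on log2(FPKM + 0.1) (adjusted p = 0.0389), where limma on log2(FPKM + 1) gave a log2 difference of 0.83, below the fold required, and the adjusted p ran from 0.000686 to 0.164 over the alternatives. TraesCS7D02G229500 had white values of 0.578, 0.166 and 0.106 and purple values of 1.55, 0.262 and 0.563 FPKM, with overlapping groups (edgeR adjusted p = 0.349). EdgeR thus called 0 of the 2, with 1 higher at an unadjusted edgeR p below 0.05, and 1 by DESeq2. Both averaged below 0.5 FPKM in white grain and passed the filter through purple grain alone. TraesCS3D02G406500, below the filter, had 15, 40 and 6 counts in white and 115, 70 and 57 in purple grain.

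TIFY proteins repress jasmonate responses until the hormone is perceived. Of 9 genes 7 were tested. TraesCS4D02G295900, described as TIFY 10B (chromosome 4D, 465605204 to 465607041), had 22.1, 22.0 and 15.9 FPKM in white replicates 1 to 3, against 48.7, 19.0 and 17.6 FPKM in purple replicates 1 to 3. TraesCS4A02G007900, with the same description (chromosome 4A, 4843495 to 4845175), had 8.28, 7.81 and 5.51 FPKM in white replicates 1 to 3, against 37.1, 10.2 and 8.15 FPKM in purple replicates 1 to 3. In these 2 genes, as in all 7 tested, purple replicate 1 was the highest library, a pattern found in 16.9% of all tested genes. Of the TIFY 11b genes, TraesCS4A02G007800 had white values of 15.8, 22.7 and 16.6 and purple values of 29.3, 8.52 and 12.2 FPKM and TraesCS4D02G296000 had white values of 15.4, 18.3 and 9.51 and purple values of 34.2, 7.54 and 10.7 FPKM. Purple replicates 2 and 3 lay below or within the white values of both. EdgeR called 0 of the 7, with 1 higher at an unadjusted edgeR p below 0.05, and DESeq2 and limma called 0. That gene was TraesCS4A02G007900, with a log2 difference of 1.44 and an SE of 0.58 (edgeR adjusted p = 0.177). The TIFY 3A genes TraesCS7B02G107800 and TraesCS7A02G201200 had log2 differences of 0.40 ± 0.69 and 0.01 ± 0.62 (SE, edgeR adjusted p = 0.747 and 0.994), and both turned below 0 without purple replicate 1, with the replicate block and by limma. Of the TIFY 5A genes 1 had 0 counts in every library and the other had 4, 0 and 4 counts in purple grain and 0 in white. Summed TIFY FPKM was 74.8, 95.0 and 62.5 in white and 189.9, 53.7 and 60.8 in purple grain.

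The 9 genes described as jasmonate-induced proteins, known from barley leaves treated with jasmonate, had 0 counts in every library. They include 4 described as 60 kDa jasmonate-induced protein, on chromosomes 2B, 7A and 7D. At 3 counts per library as the floor, a difference between the grain types was not detectable for them at this depth.

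Because reads can be shared between subgenome copies, counts were also summed over genes with the same description and tested across 16796 such groups, of which 2.61% were called higher and 1.46% lower. Of the 21 groups that hold lipoxygenase and jasmonate genes or the set-aside channels, 1 was higher and 1 lower. The higher group holds the called TraesCS5D02G513100, and the lower one the called TraesCS2B02G328200 and TraesCS2D02G309500. Both groups thus share counts with genes already called and are no separate support for them. The 9 genes described as Putative lipoxygenase 3 of Aegilops tauschii, a wild relative of wheat, had summed FPKM of 2.96, 1.04 and 2.20 in white and 20.1, 46.2 and 14.6 in purple grain. Every purple sum lay above every white sum, with a log2 difference of 3.82 and an SE of 0.65 (edgeR adjusted p = 0.0323). The call did not hold with the replicate block and without any of white replicates 2 and 3 and purple replicates 1 and 2 (edgeR adjusted p up to 0.116). The 4 genes described as 12-oxophytodienoate reductase 2 of Triticum urartu, the wild wheat related to the A subgenome, summed to 11.5, 10.2 and 20.6 FPKM in the white libraries, against 2.30, 1.52 and 2.32 FPKM in the purple ones. They fell by 2.84 on the log2 scale (SE 0.39; edgeR adjusted p = 0.0194), and the call did not hold without purple replicate 1 or purple replicate 2 (edgeR adjusted p up to 0.0914). TraesCS1D02G013000, called higher by itself, lies in a group that was not called, the 6 genes described as 12-oxophytodienoate reductase 1 of Aegilops tauschii. The log2 difference of that group was 0.01 with an SE of 0.76 (edgeR adjusted p = 0.994). White sums were 6.18, 4.55 and 0.615 FPKM, and purple sums 1.99, 2.79 and 2.78 FPKM. The group also holds TraesCS7D02G175800, with a log2 difference of -2.92, so this sum mixes opposite directions.

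Position was described by clusters. Of 23 clusters of genes of 1 class at most 1000 kb apart, those of the lipoxygenases on 4A, 4B, 4D, 5A, 5B and 5D held 9 tested genes, all with a log2 difference above 0. Of 9 tested reductases in clusters, the 8 on 2B, 2D, 7B and 7D were below 0, and TraesCS1D02G013000, in a cluster on 1D, was above 0. Near-identical neighbours can share reads, so members of a cluster are not independent.

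A wider list of other pathway and related genes, 105 by description with 43 tested, had 2 higher and 1 lower and a median log2 difference of -0.07. The list is not limited to jasmonate synthesis and perception. It takes in, among others, IAA-amino acid hydrolases, Topless-related proteins and general enzymes of beta-oxidation. Among all tested genes 2.87% were called higher and 2.32% lower. With an unadjusted edgeR p below 0.05, 4 of the 43 were higher and 6 lower, beside 14.2% and 12.6% of all tested genes. Both genes called higher code for coronatine insensitive proteins, the jasmonate receptors. TraesCS3D02G360400 had 2.87, 3.42 and 2.19 FPKM in white replicates 1 to 3, against 9.11, 12.1 and 5.55 FPKM in purple replicates 1 to 3, without overlap, and a log2 difference of 1.77 and an SE of 0.32 (edgeR adjusted p = 0.0338). TraesCS1B02G288100 had white values of 5.43, 6.92 and 3.64 and purple values of 10.2, 11.6 and 9.99 FPKM, also without overlap, and a log2 difference of 1.12 and an SE of 0.24 (edgeR adjusted p = 0.0499). The former call did not hold in 5 of the 6 fits that leave out a library and the latter in all 6, as well as with total counts, with no filter, by limma and with the replicate block (edgeR adjusted p up to 0.117 and 0.160). The lower gene, TraesCS1B02G129300, is described as acyl-coenzyme A oxidase 4, an enzyme of peroxisomal beta-oxidation. It had 28.5, 34.4 and 30.9 FPKM in white replicates 1 to 3, against 12.1, 9.41 and 9.72 FPKM in purple replicates 1 to 3, and fell by 1.48 on the log2 scale (SE 0.18; edgeR adjusted p = 0.0119), a call that did not hold without purple replicate 2 (edgeR adjusted p = 0.0569).

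The rest of this list held no called gene. The 4 tested 3-ketoacyl-CoA thiolases, which end each round of beta-oxidation, all had a log2 difference below 0, and edgeR called 0 of them, with 1 lower at an unadjusted edgeR p below 0.05 and 1 by DESeq2. Of 12 tested genes, 3 described as Ninja-family, ABI5-binding proteins and 9 as Topless-related proteins, the latter named for a co-repressor, edgeR called 0, with 1 higher at an unadjusted edgeR p below 0.05 and 0 by DESeq2. Of 9 tested ILR1-type hydrolases, which split amino acid conjugates of hormones, 8 were below 0. EdgeR called 0 of the 9, where 2 were lower at an unadjusted edgeR p below 0.05 and 0 by DESeq2. Of the other genes, 2 OPC ligase-like genes, 2 genes described as cytochrome P450 94 but with a KEGG number of another family, and 3 peroxisomal ABC transporters were tested. EdgeR called 0 of these, where 1 ligase-like gene and 1 transporter were lower at an unadjusted edgeR p below 0.05 and also by DESeq2. The transporter, TraesCS1B02G030800, was called lower without white replicate 1 (edgeR adjusted p = 0.0154, against 0.116 with it). The 8 genes described as MYC2 and the 20 lipase genes were all below the filter, with at most 0.163 and 0.551 FPKM.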

How the data were processed

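RNA sequencing of 6 grain libraries, 3 from white and 3 from purple grain, was read from a table with 107891 gene rows. Per the submitters' processing notes the tools were cutadapt, HISAT2 and StringTie, and build, annotation and strand setting are not given in the sources used here. The deposited table holds, per the file headers, whole-number counts per gene and library. Per the file headers, the authors also gave FPKM, in which all 247036 values of uncounted genes appear as 0.0001 and were read as 0. A further 12 measurement columns, from 6 libraries that match no labelled sample, were not used. Coordinates, descriptions and KEGG numbers come from the table, and 0 identifiers matched the supplied gene reference, so sequences were not used here.

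Counts of the 48492 genes that averaged 0.5 FPKM or more were fitted in edgeR 4.0.16 (R 4.3.3) with TMM scaling, a trended dispersion and the quasi-likelihood test. The common biological coefficient of variation was 0.488. Steps were tested on simulated counts. Since no label ties libraries to separate plants, p-values cover only the spread between these samples, and this may be technical. All pairs of libraries differed by more than counting noise. Bounds against 0 counts take 3 counts per library and cover counting error only. Errors of mean FPKM are SD (n = 3), and those of log2 differences are SE, also where neither is named. A value with ± in brackets before an edgeR adjusted p is a log2 difference with its SE.

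The members, the lists and the rule for naming genes were chosen with earlier results of these data known. The rule named all called members and, per class, the 3 with the highest mean and the smallest p. Synthesis enzymes after lipoxygenase formed 1 class. Any other gene was picked with its values in view. Alternatives were DESeq2 1.42.0, limma 3.58.1 on log2(FPKM + 1) and log2(FPKM + 0.1), other scalings, filters and thresholds, a replicate block and leaving out each library. Membership by KEGG number, without the channels, and looser description groups were added after seeing the data. A description gives the most similar protein, often from another species, and is no proof of activity.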

Additional observations from a re-analysis of the deposited data

How the results depend on the processing

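Over all genes, 1391 were higher and 1127 lower, against 4561 and 3008 by DESeq2, 2008 lower by limma with a pseudocount of 0.1, and 229 to 2562 higher and 351 to 2411 lower when a library was left out. Of the members with the channels, 2 were higher and 2 lower. The counts were 8 and 9 by DESeq2, 5 and 4 by limma with a pseudocount of 0.1, 4 lower by limma with a pseudocount of 1, 1 higher at a mean of at least 1 FPKM, 4 and 4 with membership by KEGG number, and 1 to 8 and 0 to 4 when a library was left out. Lipoxygenases had 1 higher in the main result, 2 with total counts, with no filter, by limma with a pseudocount of 1 or with the replicate block, 3 by limma with 0.1, 5 by DESeq2 and 1 to 6 when a library was left out. Reductases had 9 lower by DESeq2, 4 by limma with either pseudocount, 0 higher at a mean of at least 1 FPKM, and 0 to 1 higher and 0 to 4 lower when a library was left out. The other pathway genes had 1 higher with total counts, with no filter and by limma with either pseudocount, 4 lower by DESeq2, 2 lower by limma with either pseudocount, and 0 to 2 in each direction when a library was left out. Over all description groups DESeq2 called 1590 higher and 983 lower, and leaving out a library gave 39 to 914 and 48 to 821. Of the member groups DESeq2 called 5 and 4, and leaving out a library gave 0 to 5 and 0 to 2.

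Same-numbered libraries correlated at 0.12, 0.00036 and 0.228 in their deviations from the group means, and differently numbered ones at -0.22 to 0.087. With 3 libraries per type, these values cannot tell whether same-numbered libraries share more than a label. With the replicate block 1 member was lower, 2 lipoxygenases were higher, 0 reductases were higher and 1 lower, 2 other pathway genes were lower, and 0 member description groups were higher.

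For 18 named genes, 238 of 267 gene and alternative pairs kept direction and side of the threshold, 9 lost the call, 9 gained it and 11 turned direction. When a library was left out, the log2 difference of TraesCS4B02G037700 ran from -0.24 without purple replicate 1, and -0.10 without white replicate 3, to 0.59. That of TraesCS6A02G334800 ran from -0.31, without purple replicate 1, to 1.09. That of TraesCS6D02G314300 ran from -0.81, without purple replicate 1, to 0.59, and was -0.22 and -0.24 by limma with pseudocounts of 1 and 0.1 and -0.18 with the replicate block. That of TraesCS4A02G007800 ran from -0.66 to 0.28 and was above 0 without purple replicate 2, white replicate 2 (0.05) or purple replicate 3 (0.14). That of TraesCS4D02G296000 ran from -0.50, without purple replicate 1, to 0.74. The cause of these changes was not tested. At 3 libraries per type, reads shared between subgenome copies and the spread among purple libraries limit what single genes show.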

Other observations

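Genes with the KEGG number of a jasmonate or lipoxygenase enzyme but with another description, 190 in number and chosen after seeing the data, extend the pathway where the descriptions named few expressed genes. Of 91 tested, 5 were higher and 2 lower by edgeR, beside 2.87% and 2.32% of all tested genes. The 5 include TraesCS3D02G360400 and TraesCS1B02G288100, already given above as the 2 higher genes of the wider list. With an unadjusted edgeR p below 0.05, 15 were higher and 8 lower, beside 14.2% and 12.6% of all. DESeq2 called 10 higher and 6 lower, beside 9.41% and 6.2% of all. For allene oxide synthase, 7 such genes were tested, 6 with a log2 difference above 0, and edgeR called 0, with 3 higher at an unadjusted edgeR p below 0.05 and 2 by DESeq2. Their summed FPKM was 21.6, 21.9 and 11.98 in white and 86.8, 27.9 and 16.6 in purple grain, and purple replicate 1 was the highest library of 6 of the 7. TraesCS4B02G237600, described as AOS, had white values of 0.684, 0.714 and 0 and purple values of 27.8, 10.3 and 1.60 FPKM (edgeR adjusted p = 0.112). Of 12 tested genes with the 13-lipoxygenase number, 1 was higher, TraesCS1B02G226400, with white values of 0.0935, 0.134 and 0.0710 and purple values of 0.653, 2.24 and 1.43 FPKM (3.95 ± 0.57; edgeR adjusted p = 0.0170), a call that did not hold without purple replicate 2 or without either of white replicates 2 and 3. The median log2 difference of the 12 was -0.08.

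Of 15 tested reductase genes by KEGG number alone, 2 were lower and 8 lay above 0. TraesCS7D02G176000, beside the reductases of chromosome 7D, had white values of 5.08, 4.82 and 2.62 and purple values of 0.520, 0.271 and 0.621 FPKM (-3.03 ± 0.45; edgeR adjusted p = 0.0191). TraesCS2A02G026600 had white values of 0.846, 2.45 and 1.02 and purple values of 0.0219, 0 and 0 FPKM (edgeR adjusted p = 0.0252). In both all purple libraries lay below all white ones, and each call did not hold without white replicate 2 or purple replicate 2, among others. Of 36 tested ZIM-domain genes edgeR called 0, with 0 at an unadjusted edgeR p below 0.05 and 0 by DESeq2, and purple replicate 1 was the highest library of 27 of them, or 75%. Of 10 tested genes with the COI1 number 3 were higher, and the one not described as coronatine insensitive, TraesCS3B02G399200, had white values of 3.56, 4.10 and 2.78 and purple values of 10.1, 12.2 and 6.62 FPKM (1.58 ± 0.28; edgeR adjusted p = 0.0295). Of 4 tested jasmonate methyltransferases by KEGG number 1 was higher, TraesCS3B02G287100, with white values of 0.0485, 0.217 and 0.0834 and purple values of 1.40, 1.28 and 0.495 FPKM (edgeR adjusted p = 0.0497). That p is close to the threshold of 0.05, and limma on log2(FPKM + 1) called 0 of the 4, where DESeq2 called 1. All its white values were below 0.5 FPKM, so the gene passed the filter through purple grain alone.

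The 2 tested potassium channels set aside from the rule were TraesCS4A02G298900, with white values of 1.05, 4.70 and 0.807 and purple values of 3.44, 3.47 and 1.08 FPKM, and TraesCS4D02G012700, with white values of 0.378, 0.275 and 0.0365 and purple values of 4.18, 3.60 and 0.407 FPKM. EdgeR called 0 of them, with 1 higher at an unadjusted edgeR p below 0.05 and 1 by DESeq2 (edgeR adjusted p = 0.700 and 0.104). TraesCS3A02G257700 was below the filter.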
